A study of Mus musculus with 34 samples.

Results

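The genes described here encode the mouse CDK inhibitors, proteins that bind cyclin-dependent kinases (CDKs) and slow the cell cycle. The Cip/Kip family holds 3 genes, Cdkn1a (p21), Cdkn1b (p27) and Cdkn1c (p57), and the INK4 family holds 4, Cdkn2a (p16, with the Arf product from the same locus), Cdkn2b (p15), Cdkn2c (p18) and Cdkn2d (p19). All 7 were chosen by name and were measured by 9 probe sets, among 18193 genes with a probe set on the array. Of the 7 genes, 5 met the filter for low signals (100 or more on 2 or more arrays) and were tested together with all 12719 genes that met it, and Cdkn2a and Cdkn2b did not. Total RNA from whole, unsorted and untreated mouse fetal livers was hybridised to 34 one-colour Affymetrix arrays to compare combinations of losses of the 3 pocket proteins RB1, p107 and p130, encoded by Rb1, Rbl1 and Rbl2. The 8 genotypes were Rb1;p107;p130 triple knockout (TKO, 6 arrays), Rb1;p107 double knockout (DKO, 5 arrays), Rb1;p130 DKO (9 arrays), Rb1 KO (2 arrays), p107;p130 DKO (6 arrays), p130 KO (3 arrays), p107 KO (1 array) and wild type (2 arrays). Each array is labelled embryonic day 14.5, while the design text gives E13.5-14.5. The labels name neither the alleles, the strain nor a Cre driver and leave unsaid whether each array is a different animal. Where livers are counted below, the count is of arrays. The p-values therefore cover no more than the variation among these arrays, which may be technical.

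Cells divide when cyclins activate their CDKs and the kinases phosphorylate the pocket proteins, which then let go of E2F transcription factors. Cip/Kip proteins bind several cyclin and CDK complexes, whereas INK4 proteins bind Cdk4 and Cdk6 and so keep the pocket proteins in their active form. Cdkn1a is a classical target of p53, Cdkn1c is an imprinted gene expressed from the maternal chromosome, and Cdkn2c, Cdkn1a and Cdkn1b are known from erythroid cells leaving the cell cycle. The fetal liver at this stage is the main site of red cell production, and most of its cells are erythroid.

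Signals of the targeted genes were lower where those genes were lost. Over all backgrounds the Rb1 signal fell by 2.43 ± 0.11 (log2, SE) on the 22 arrays without Rb1, Rbl1 fell by 4.0 ± 0.12 on the 18 arrays without p107, and Rbl2 fell by 0.85 ± 0.12 on the 24 arrays without p130, each against all arrays that kept the gene. The Rb1 probe set still averaged 937.4 to 1515 in the 4 genotypes without Rb1, against 5860 to 7435 in the 4 genotypes with it. The brightest Rbl2 probe set still averaged 184.2 to 206.7 in the 4 genotypes without p130, against 345.1 to 481.3 in the 4 with it. Of the liver's defining markers, albumin (Alb) ran from 25680 to 48160, Afp from 30170 to 52400 and the red cell anion exchanger Slc4a1 from 25480 to 47660, while the brightest Hba-a1 probe set stayed under 100 on all 34 arrays. Probe sets with several gene symbols were left out, and how well the Hba-a1 probe set measures its RNA was not tested. Its low signal is therefore not read as absence of alpha globin RNA. Pairs of arrays correlated at 0.909 to 0.980 over the 28005 probe sets with a signal of 100 or more on 2 or more arrays. From the signals alone the arrays were cut into 3 array groups of 15, 10 and 9, the number 3 being a setting of the clustering. In the values clustered, the lowest mean correlation of an array with its own group was 0.176. The groups are inferred and are not a recorded batch, so values within them are given beside the results. For changes with loss of Rb1 or p107, these are plain differences of mean log2 signal between arrays without and with the gene. They hold no term for the other losses, unlike the fitted changes. Array 9 of Rb1;p130 DKO had the lowest median correlation with the other arrays (0.939) and stood apart for Cdkn1c and Cdkn2d. For Cdkn1b, Cdkn1c and Cdkn2d, the changes with loss of Rb1 or p107 that were called are given with and without it.

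Of the 7 members, 4 were higher without Rb1, as described after the sequences, and the 250 bases before the outermost annotated start of each of these 4 genes are shown so that the promoters of the genes that moved together can be compared. The sequences are RefSeq, build GRCm38.p6, 5′ to 3′ along the gene, and windows of 6 members matched, all but Cdkn1c. Capitals mark the p53 decamer, the E2F words, the Sp1 box and the CCAAT box on either strand.
Cdkn1a, chr17:29090729-29090978, plus strand: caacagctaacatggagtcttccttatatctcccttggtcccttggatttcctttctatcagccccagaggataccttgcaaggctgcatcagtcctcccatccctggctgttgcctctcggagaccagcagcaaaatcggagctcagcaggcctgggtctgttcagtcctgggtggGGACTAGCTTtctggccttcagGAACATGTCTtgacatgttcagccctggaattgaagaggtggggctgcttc
Cdkn1b, chr6:134920151-134920400, plus strand: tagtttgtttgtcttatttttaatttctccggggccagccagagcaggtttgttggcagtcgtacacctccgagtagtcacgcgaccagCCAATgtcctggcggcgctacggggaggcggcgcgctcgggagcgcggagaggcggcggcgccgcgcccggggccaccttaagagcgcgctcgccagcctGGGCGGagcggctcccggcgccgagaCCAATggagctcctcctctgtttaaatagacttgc
Cdkn2c, chr4:109666757-109667006, minus strand: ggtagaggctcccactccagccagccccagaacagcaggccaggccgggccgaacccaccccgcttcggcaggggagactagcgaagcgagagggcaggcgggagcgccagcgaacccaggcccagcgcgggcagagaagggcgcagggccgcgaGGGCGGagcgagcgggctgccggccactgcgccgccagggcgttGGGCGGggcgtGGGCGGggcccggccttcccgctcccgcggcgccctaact
Cdkn2d, chr9:21291210-21291459, minus strand: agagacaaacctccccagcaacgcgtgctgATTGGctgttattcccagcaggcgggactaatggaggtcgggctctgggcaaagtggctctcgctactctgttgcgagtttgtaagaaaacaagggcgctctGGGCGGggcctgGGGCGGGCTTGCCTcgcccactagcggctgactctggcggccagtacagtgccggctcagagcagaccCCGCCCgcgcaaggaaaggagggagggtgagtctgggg
The Cdkn1a window held 2 p53 decamers, starting 73 and 51 bases before the start, and held neither an Sp1 box (GGGCGG) nor a CCAAT box (CCAAT). A second annotated Cdkn1a start, further along the gene, had 2 Sp1 boxes and no p53 decamer in the 250 bases before it, and a second Cdkn2c start had none of the words searched in the 250 bases before it. The Cdkn2d window held 1 p53 decamer, which overlaps an Sp1 box, and 3 Sp1 boxes in all with 1 CCAAT box. The Cdkn2c window held 3 Sp1 boxes, and the Cdkn1b window held 1 Sp1 box and 2 CCAAT boxes. None of the 4 windows held 1 of the E2F words searched (TTTCCCGC, TTTCGCGC, TTTGCCGC, TTTGGCGC), the CHR word (TTTGAA) or the GATA word (AGATAA), which says only that these letters are not in these windows. All 4 held the KLF word (CCNCNCCC), not capitalised here, which can overlap the Sp1 box and in Cdkn1a overlaps a p53 decamer. Windows of the untested members Cdkn2a and Cdkn2b, not shown, also held the KLF word, and a Cdkn2a window held an E2F word and Sp1 boxes. Over all 32851 windows, each running from 250 bases before to 50 after a start, 7.13% held a p53 decamer, 1.86% an E2F word, 15.99% the CHR word, 32.74% an Sp1 box, 33.85% a CCAAT box, 9.99% the GATA word and 45.93% the KLF word. The p53 decamer was added to the search after the sequences had been seen. A match is a description of the letters and not a site shown to be bound.

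Loss of Rb1 went with higher signals of 4 of the 5 tested CDK inhibitor genes. Over all backgrounds Cdkn1a was 2.28-fold higher, Cdkn2c 1.61-fold, Cdkn2d 1.43-fold and Cdkn1b 1.37-fold, and Cdkn1c was the tested member that was not called. A gene was called at a limma adjusted p under 0.05, in a fit with a term for the loss of each pocket protein, and fold changes are on the log2(signal + 32) scale, which understates changes of low signals. By this rule 2.27% of all tested genes were called in either direction, and the median change was 0.52 over the 5 members against -0.02 over all tested genes (log2). In whole liver, a change in the number of cells of a type and a change of RNA per cell cannot be told apart.

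**Figure D1:**
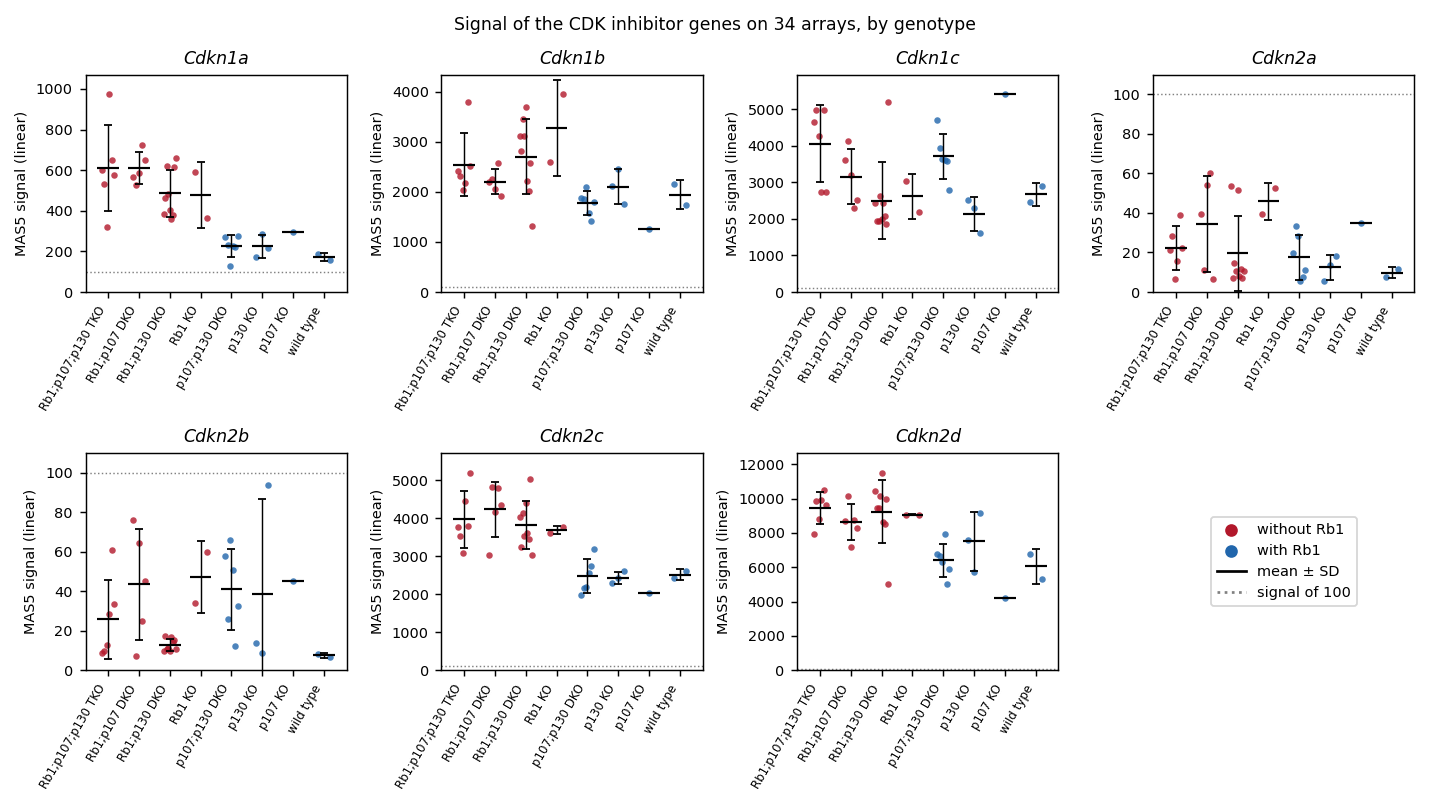
Linear MAS5 signal of each member's brightest probe set on every array (points), by genotype, with mean ± SD (bars) and a dotted line at a signal of 100. Cdkn1a on the 22 arrays without Rb1 (red) lies above all 12 arrays with Rb1 (blue), Cdkn1c is high where p107 is lost, and Cdkn2a and Cdkn2b stay below 100 on all 34 arrays.

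Cdkn1a, the p53-induced inhibitor of the cyclin E and cyclin A kinases, separated the arrays by Rb1. In TKO livers its lowest, median and highest signals were 322.2, 588.3 and 973.3 over 6 arrays, and in Rb1;p107 DKO livers they were 525.9, 585.3 and 723.6 over 5 arrays. In Rb1;p130 DKO livers they were 361.3, 461.6 and 660.2 over 9 arrays, and the 2 Rb1 KO livers gave 591.3 and 363.5. Genotypes with Rb1 were lower on every array. The p107;p130 DKO livers had 129.5, 229.4 and 276.3 as lowest, median and highest of 6 arrays. The 3 p130 KO livers gave 174.0, 284.2 and 215.0, the p107 KO liver 296.3, and the 2 wild type livers 186.1 and 159.2. All 22 arrays without Rb1 (546.5 ± 149.5, SD) lay above all 12 arrays with Rb1 (222.4 ± 53), with no overlap. Cdkn1a was the 1 member of 5 whose arrays did not overlap between the sides, as was the case for 0.055% of all tested genes (7 genes). The change was 1.19 ± 0.12 (log2, SE, adjusted p = 7.15e-09). Within the 3 array groups the arrays without Rb1 were higher than those with it by 1.14, 1.39 and 1.01 (log2), from 9 against 6, 6 against 4 and 7 against 2 arrays.

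From the highest mean signal down, the order was Rb1;p107 DKO (609.8), TKO (608.8), Rb1;p130 DKO (485.1), Rb1 KO (477.4), p107 KO (296.3), p107;p130 DKO (225.8), p130 KO (224.4) and wild type (172.6). The arrays of neighbours in this order overlapped except on either side of the single p107 KO array. The dimmer Cdkn1a probe set moved in the same direction, with 166.0 ± 62.0 over the 22 arrays without Rb1 and 37.2 ± 27.6 over the 12 with it. On this probe set 21 of the 22 arrays without Rb1 lay above all arrays with Rb1, and array 3 of TKO, at 7.64, was the exception. That TKO array was also the lowest Rb1-deficient array on the brighter probe set. The change of the dimmer probe set was 1.5 ± 0.20 (log2, SE, adjusted p = 6.18e-06 with every probe set tested separately), and it reached 100 on 20 of 34 arrays.

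**Figure D2:**
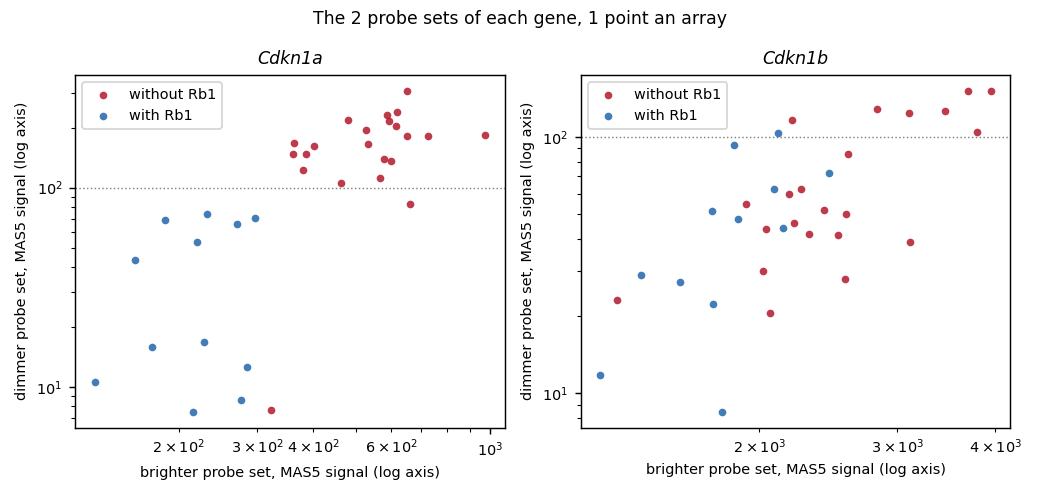
MAS5 signal (log axes) of the dimmer against the brighter probe set of Cdkn1a (left) and Cdkn1b (right), 1 point an array, with a dotted line at a signal of 100 on the dimmer probe set. Both Cdkn1a probe sets separate the arrays without Rb1 (red) from those with it (blue) apart from 1 TKO array at 7.64, whereas the dimmer Cdkn1b probe set reaches 100 on 8 of 34 arrays and mixes the classes.

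Cdkn1b, which encodes the p27 inhibitor of cyclin E and cyclin A kinases, rose less and overlapped more. Its lowest, median and highest signals were 2041, 2367 and 3789 over the 6 TKO arrays, and 1923, 2202 and 2577 over the 5 Rb1;p107 DKO arrays. In Rb1;p130 DKO livers they were 1318, 2822 and 3689 over 9 arrays, and the 2 Rb1 KO livers gave 2596 and 3947. The p107;p130 DKO livers had 1415, 1825 and 2090 as lowest, median and highest of 6 arrays. The 3 p130 KO livers gave 2114, 2456 and 1747, the p107 KO liver 1255 and the 2 wild type livers 2146 and 1742. Of the 22 arrays without Rb1 (2597 ± 671.4, SD), 11 lay above all 12 arrays with Rb1 (1840 ± 333.2). Array 5 of TKO was the highest of its group and array 9 of Rb1;p130 DKO the lowest of its own. The change with Rb1 loss was 0.45 ± 0.11 (log2, SE, adjusted p = 0.0169). The plain difference of means was 0.59, 0.54 and 0.32 within the 3 array groups. Without Rb1;p130 DKO array 9 the fitted change was 0.50 ± 0.09 (adjusted p = 5.3e-04), and the difference of means in the third array group was 0.43. The dimmer probe set gave 0.34 ± 0.20 (log2, adjusted p = 0.628), and with the mean of both probe sets the gene was no longer called (0.40 ± 0.14, adjusted p = 0.180).

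Neighbouring genotypes overlapped throughout the order of Cdkn1b means, which ran down through Rb1 KO (3271), Rb1;p130 DKO (2701), TKO (2544), Rb1;p107 DKO (2204), p130 KO (2106), wild type (1944) and p107;p130 DKO (1770), and only the p107 KO array (1255) lay below all arrays of its neighbour. With p107 loss the change of Cdkn1b was -0.21 ± 0.11 (adjusted p = 0.300), which was not called.

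Cdkn2c, the INK4 gene whose p18 product inhibits Cdk4 and Cdk6, had the second smallest adjusted p among the members. Its lowest, median and highest signals were 3087, 3778 and 5195 over the 6 TKO arrays, 3042, 4345 and 4804 over the 5 Rb1;p107 DKO arrays, and 3036, 3610 and 5023 over the 9 Rb1;p130 DKO arrays. The 2 Rb1 KO livers gave 3612 and 3759. These arrays lay mostly above those with Rb1. The p107;p130 DKO livers had 1983, 2377 and 3175 as lowest, median and highest of 6 arrays. The 3 p130 KO livers gave 2286, 2418 and 2600, the p107 KO liver 2031, and the 2 wild type livers 2414 and 2620. Of the 22 arrays without Rb1 (3942 ± 642.3, SD), 19 lay above all 12 with it (2432 ± 337.2), and 1 array, p107;p130 DKO array 6 at 3175, set that limit. The change was 0.69 ± 0.08 (log2, SE, adjusted p = 2.06e-07), and the plain difference of means was 0.72, 0.81 and 0.47 within the 3 array groups. The means ran down through Rb1;p107 DKO (4228), TKO (3969), Rb1;p130 DKO (3822), Rb1 KO (3686), wild type (2517), p107;p130 DKO (2470), p130 KO (2435) and p107 KO (2031). Arrays of neighbours overlapped except between Rb1 KO and wild type and between p130 KO and the p107 KO array.

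Cdkn2d, the INK4 gene for p19, was also higher without Rb1. Its lowest, median and highest signals were 7953, 9745 and 10530 over the 6 TKO arrays, 7202, 8711 and 10140 over the 5 Rb1;p107 DKO arrays, and 5046, 9452 and 11510 over the 9 Rb1;p130 DKO arrays. The 2 Rb1 KO livers gave 9072 and 9063. The lowest value among these, 5046, was Rb1;p130 DKO array 9, while the other 8 arrays of that genotype ran upward from 8495. The p107;p130 DKO livers had 5033, 6466 and 7915 as lowest, median and highest of 6 arrays. The 3 p130 KO livers gave 7591, 5742 and 9169, the p107 KO liver 4186, and the 2 wild type livers 6770 and 5344. Of the 22 arrays without Rb1 (9140 ± 1334, SD), 11 lay above all 12 with it (6444 ± 1357), and p130 KO array 3 at 9169 set that limit. The change was 0.52 ± 0.09 (log2, SE, adjusted p = 2.76e-04). Within the array groups the plain difference of means was 0.56, 0.81 and -0.05. Arrays without Rb1 were thus not higher in the third, which had 2 arrays with Rb1. Without Rb1;p130 DKO array 9 the fitted change was 0.56 ± 0.07 over all arrays (adjusted p = 1.36e-06). The difference of means in the third array group was then 0.07, from 6 arrays without Rb1 against 2 with it. By mean, TKO (9451) was followed by Rb1;p130 DKO (9239), Rb1 KO (9068), Rb1;p107 DKO (8617), p130 KO (7501), p107;p130 DKO (6421), wild type (6057) and p107 KO (4186). Neighbours overlapped in this order except the p107 KO array and wild type.

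Cell type markers were set beside these changes, with 2.27% of all tested genes called for Rb1 loss. Of the 8 tested erythroid markers 2 were lower without Rb1, Epor (the erythropoietin receptor, -0.83 ± 0.10, log2, adjusted p = 1.51e-07) and Bpgm (an enzyme of red cell glycolysis, -0.52 ± 0.09, adjusted p = 1.91e-04), and none was higher. No marker of the hepatocyte, macrophage, neutrophil, megakaryocyte, stem and progenitor, endothelial, mesenchymal or lymphoid lists was called for Rb1 loss. The summed erythroid markers ran from 100400 to 155300 (median 129300) on arrays without Rb1 and from 100300 to 158600 (median 125300) on arrays with it. With log2 of that sum as a covariate, chosen after seeing the data, the changes with Rb1 loss were 1.18 for Cdkn1a, 0.46 for Cdkn1b, 0.67 for Cdkn2c and 0.52 for Cdkn2d (log2), and all 4 stayed called.

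Cdkn1c was the member called for p107 loss. In p107 loss over all backgrounds it was the 1 of 5 members called, 1.53-fold higher, while 1.16% of all tested genes were called. This Cip/Kip gene for p57 had lowest, median and highest signals of 2729, 4466 and 4966 over the 6 TKO arrays, 2295, 3208 and 4119 over the 5 Rb1;p107 DKO arrays, and 2797, 3615 and 4710 over the 6 p107;p130 DKO arrays. The p107 KO liver gave 5406, the highest of all 34 arrays. Genotypes with p107 were lower on most arrays. The Rb1;p130 DKO livers had 1852, 2065 and 5186 as lowest, median and highest of 9 arrays, and the 2 Rb1 KO livers gave 3043 and 2185. The 3 p130 KO livers gave 2517, 2295 and 1622, and the 2 wild type livers 2454 and 2894. The sides overlapped: the 18 arrays without p107 (3763 ± 935.7, SD) ran from 2295 to 5406, and the 16 arrays with p107 (2469 ± 819.3) from 1622 to 5186. The upper end of the arrays with p107 was Rb1;p130 DKO array 9, and the other 8 arrays of its genotype ended at 2638. The change with p107 loss was 0.61 ± 0.12 (log2, SE, adjusted p = 0.00812), and without that array it was 0.68 (adjusted p = 3.72e-04). Within array groups the plain difference of means was 0.82 (5 against 10 arrays), 0.12 (9 against 1) and 0.85 (4 against 5), the last being 1.13 (4 against 4) without array 9 of Rb1;p130 DKO. Rb1 loss changed Cdkn1c by -0.05 ± 0.13 (95% interval -0.32 to 0.21), which was not called.

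Markers of mesenchymal cells moved with Cdkn1c. Marker counts for p107 loss stand beside 1.16% of all tested genes called for it. Of the 10 stellate and mesenchymal markers 1 was higher with p107 loss, Pdgfrb, a growth factor receptor of pericytes and stellate cells (0.67 ± 0.11, log2, adjusted p = 8.57e-04), and the list's median change was 0.26 against 0.00 over all tested genes. Summed over the list, signals ran from 8108 to 28920 (median 14570) on arrays without p107 and from 6195 to 29310 (median 11710) on arrays with it. None of the 10 markers was at 0, and 9 of them were at 100 or more on all 34 arrays, Des being the exception at 22.1 to 222.9. Both Cdkn1c extremes also had the highest marker sums, the p107 KO array at 28920 and Rb1;p130 DKO array 9 at 29310. Within the 18 arrays without p107, log2 Cdkn1c and the log2 marker sum correlated with Pearson's r = 0.740 (permutation p = 5.2e-04, adjusted p = 0.00104) and Spearman's rho = 0.748 (adjusted p = 0.00146), and r was 0.588 without the 2 arrays farthest from the median sum. Within the 16 arrays with p107 r was 0.743 (permutation p = 0.00138, adjusted p = 0.00138), rho 0.612 (adjusted p = 0.0137) and r 0.735 without the 2 farthest. These were the 2 relations computed with marker sums. Both were chosen after seeing the data, so their p-values are descriptive only. Each class of arrays spans several genotypes and array groups, and differences between these enter each r. Inside array groups with at least 6 arrays r was 0.766 (9 arrays without p107) and 0.417 (10 arrays with p107). With the log2 sum as a covariate, chosen after seeing the data, the change of Cdkn1c with p107 loss was 0.45 ± 0.09 (adjusted p = 0.00507). With stem and progenitor, hepatocyte or erythroid marker sums in its place it was 0.64, 0.61 and 0.59, all called. Epor was the 1 of 8 tested erythroid markers called for p107 loss, lower by the log2 change of -0.43 ± 0.09 (adjusted p = 0.0118).

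**Figure D3:**
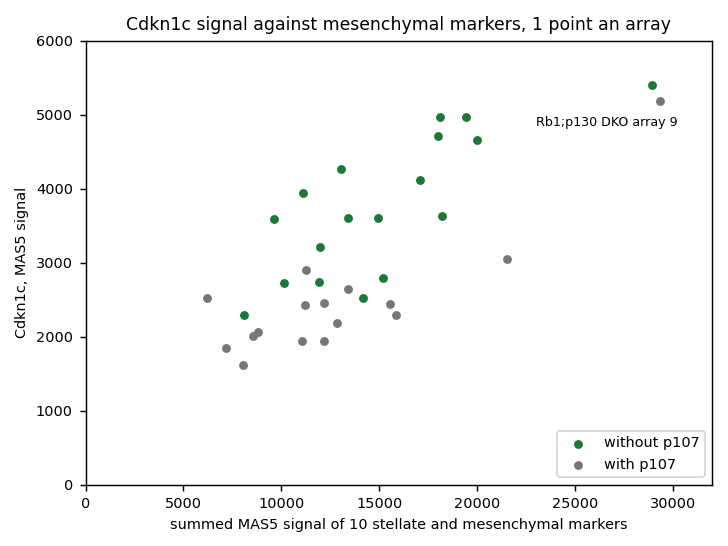
Linear MAS5 signal of Cdkn1c against the summed signal of 10 stellate and mesenchymal markers, 1 point an array. Arrays without p107 (green) run from 2295 to 5406 and arrays with p107 (grey) from 1622 to 5186, and Rb1;p130 DKO array 9 (5186) and the p107 KO array (5406) sit at the far right.

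Among genotypes the Cdkn1c means ran down from p107 KO (5406) through TKO (4054), p107;p130 DKO (3711), Rb1;p107 DKO (3148), wild type (2674), Rb1 KO (2614) and Rb1;p130 DKO (2500) to p130 KO (2145), and neighbours overlapped apart from TKO and the single p107 KO array. In a pair of comparisons that differ by p107 alone, no member was called, and Rb1;p107 DKO against Rb1 KO and p107 KO against wild type were not tested. TKO against Rb1;p130 DKO called 0 of 5 members at a background of 0.0236% of genes, with Cdkn1c at 0.72 ± 0.18 (log2, adjusted p = 0.257). Leaving out Rb1;p130 DKO array 9, the same comparison gave 0.86 ± 0.15 and an adjusted p of 0.0122. Over all single arrays left out, the adjusted p of Cdkn1c ran from 0.0122 to 0.656. The p107;p130 DKO against p130 KO comparison called 0 of 5 members, also at 0.0236%, with Cdkn1c at 0.79 ± 0.25 (adjusted p = 0.970). In both of these Cdkn1c was the 1 member with an unadjusted limma p under 0.05, against 692 and 564 of all 12719 genes. Of the other genes of its imprinted domain, 7 of the 11 listed passed the filter and 0 were called for p107 loss, with a median of -0.20. Over all tested genes 1.16% were called for that loss.

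Cdkn2a and Cdkn2b, neighbours on chromosome 4 whose products restrain Cdk4 and Cdk6 and, through Arf, stabilise p53, stayed below 100 on all 34 arrays and were not tested. Cdkn2a ran from 6.66 to 60.4 on arrays without Rb1 and from 5.73 to 35.2 on arrays with it. Its highest array was 1 of the 5 Rb1;p107 DKO livers, whose signals were 39.4, 11.2, 54.3, 60.4 and 6.66. Cdkn2b reached 93.9 on p130 KO array 3, while the other p130 KO arrays gave 13.6 and 8.75. In wild type livers Cdkn2a gave 7.74 and 11.8 and Cdkn2b 8.34 and 6.76. At these signals no fold was computed. None of the 13 tested Polycomb genes of the list of known INK4 locus silencers was called for Rb1 loss, and of the 2 genes listed beside the locus the 1 that passed the filter was not called. Over all tested genes 2.27% were called for Rb1 loss.

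Loss of p130 called 0 of 5 members over all backgrounds, at 0.0157% of all tested genes. The changes lay between -0.03 (Cdkn1a) and 0.15 (Cdkn2d, 95% interval -0.04 to 0.34). Of the members 0 of 5 had an unadjusted limma p under 0.05, against 1282 of all 12719 genes. TKO against Rb1;p107 DKO, where p130 is lost without Rb1 and p107, called 0 of 5 at 0.00786%. It also had 0 members at an unadjusted p under 0.05, against 955 of all 12719 genes. The largest difference was 0.35 for Cdkn1c (interval -0.08 to 0.78). Rb1;p107 DKO against Rb1;p130 DKO called 0 of 5 at 0.314%, with Cdkn1a at 0.33 (interval -0.04 to 0.71) and Cdkn1c at 0.37 (interval -0.02 to 0.77). The p107;p130 DKO against wild type called 0 of 5 at 0.00786%, with Cdkn1a at 0.31 (interval -0.24 to 0.86) and Cdkn1c at 0.46 (interval -0.12 to 1.03). In both of these comparisons 0 of 5 members had an unadjusted p under 0.05, against 2327 and 250 of all 12719 genes. Intervals of this width do not show that the genotypes were alike. All 9 arrays of the third array group lacked p130, so p130 loss was partly confounded with the array groups.

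The effect of Rb1 loss could be set side by side in single backgrounds. With p107 and p130 absent, TKO against p107;p130 DKO called 2 of 5 members at 0.385% of all genes, Cdkn1a at 1.28 ± 0.19 (log2, adjusted p = 2.49e-04) and Cdkn2c at 0.68 ± 0.13 (adjusted p = 0.00786). Cdkn2d at 0.56 ± 0.14 (adjusted p = 0.0713) and Cdkn1b at 0.50 ± 0.18 (adjusted p = 0.459) were not called. Arrays of the 2 genotypes did not overlap for Cdkn1a and Cdkn2d, 2 of 5 members, as for 0.802% of all genes. Cdkn2d was called without Rb1;p130 DKO array 9, an array outside the comparison that enters the shared spread (0.56 ± 0.11, adjusted p = 0.00738), and without p107;p130 DKO array 4 (0.63 ± 0.15, adjusted p = 0.0476). Over all single arrays left out, the adjusted p of Cdkn2d ran from 0.00738 to 0.240. With p130 absent and p107 present, Rb1;p130 DKO against p130 KO called 0 of 5 at 0.118%, with Cdkn1a at 1.00 ± 0.22 (adjusted p = 0.0574) and Cdkn2c at 0.63 ± 0.15 (adjusted p = 0.113). Both had an unadjusted p under 0.05, against 673 of all 12719 genes. Over all single arrays left out, the adjusted p of Cdkn1a in this comparison ran from 0.0211 to 0.438. It was under 0.05 for 6 of these arrays (0.0211 to 0.0499). Of these, only Rb1;p130 DKO arrays 6 and 7 belong to the comparison, and the others enter through the shared spread.

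With p107 and p130 present, Rb1 KO against wild type called 0 of 5 at 0.00786%, from 2 arrays a side. An unadjusted limma p under 0.05 was found for 4 members, against 440 of all 12719 genes. The changes were 1.28 (95% interval 0.61 to 1.96) for Cdkn1a, 0.72 (0.09 to 1.35) for Cdkn1b, 0.55 (0.08 to 1.01) for Cdkn2c and 0.59 (0.09 to 1.09) for Cdkn2d. TKO against wild type called 1 of 5 at 0.0786%, Cdkn1a at 1.58 ± 0.27 (adjusted p = 0.00323), a call lost without wild type array 1 (adjusted p = 0.0616) or array 2 (0.220). It was also lost with the mean of both probe sets (1.23, adjusted p = 0.229) and with only the arrays compared in the fit (adjusted p = 0.246). In that comparison Cdkn2c was 0.63 higher and Cdkn2d 0.64, without a call. The difference in the Rb1 effect itself was tested in a pair of interaction contrasts. That between p107-deficient and p107-positive livers without p130 called 0 of 5 members at 0% of all genes, and that between livers without and with both p107 and p130 also called 0 of 5 at 0%. At an unadjusted limma p under 0.05, 0 of 5 members passed in either, against 211 and 266 of all 12719 genes. For Cdkn1a the 95% intervals of the interaction were -0.32 to 0.87 and -0.78 to 0.77. These comparisons share arrays and so are not independent of each other.

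**Figure D4:**
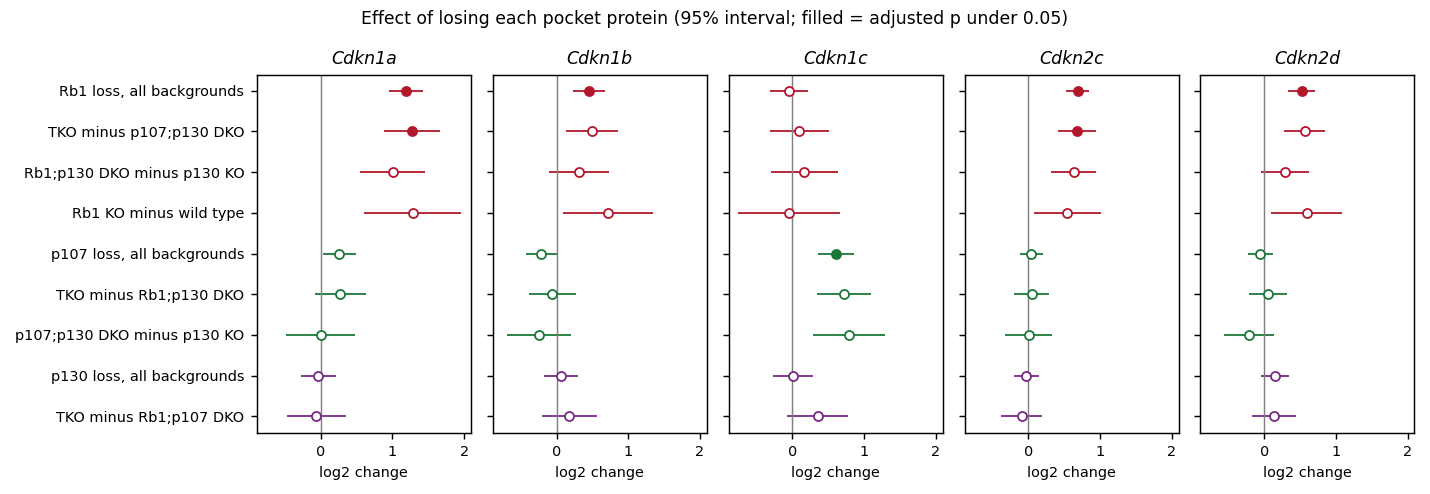
Log2 change of the 5 tested members in 9 comparisons, with 95% intervals (lines) and filled circles at an adjusted p under 0.05; red rows lose Rb1, green rows p107 and purple rows p130. Cdkn1a lies near 1 or above in each Rb1 comparison shown, Cdkn1c departs from 0 in the p107 rows, and no p130 row has a filled circle.

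Members varied together unevenly from array to array. Among the 20 relations computed between pairs of tested members, 10 within the arrays without Rb1 and 10 within the arrays with it, 1 passed adjustment. The permutations shuffled arrays across genotypes and array groups, so differences between these enter each r and p. On the 22 arrays without Rb1 log2 Cdkn1b and Cdkn2d correlated with Pearson's r = 0.744 (permutation p = 9e-05, adjusted p = 0.0018) and Spearman's rho = 0.663 (adjusted p = 0.0182), and r was 0.690 without the 2 arrays farthest from the median of Cdkn1b. Array 9 of Rb1;p130 DKO was lowest for both genes, and without it r was 0.598 over 21 arrays, for which no p was computed. Within array groups r was 0.558, 0.462 and 0.913, and the last fell to 0.381 over 6 arrays without array 9, against 0.913 over 7 arrays with it. On the 12 arrays with Rb1, r was 0.422 (permutation p = 0.169, adjusted p = 0.339) and rho 0.329 (adjusted p = 0.561). Cdkn1b and Cdkn2c had a pooled r of 0.244 on arrays without Rb1 (adjusted p = 0.502), rho = 0.237 (adjusted p = 0.561), while within the 3 array groups r was 0.750, 0.832 and 0.711. Cdkn1a and Cdkn2c, both raised without Rb1, had r = 0.377 (adjusted p = 0.217) and rho = 0.363 (adjusted p = 0.390) within those 22 arrays.

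**Figure D5:**
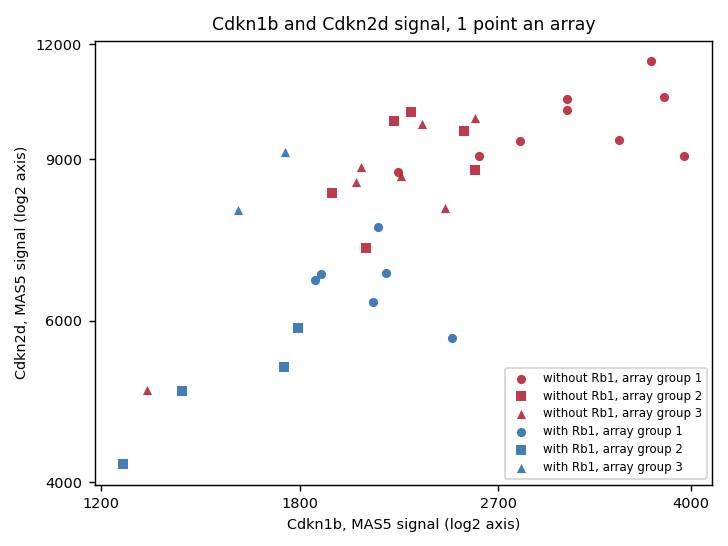
MAS5 signal of Cdkn2d against Cdkn1b (log2 axes), 1 point an array, coloured by Rb1 and shaped by array group. Among the arrays without Rb1 (red) both rise together (r = 0.744), with 1 array of the third group, Rb1;p130 DKO array 9, at the low end of both.

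Across all 34 arrays, and among 8491 genes averaging 8 or more in log2 signal, the profiles most like each member's were ranked by Pearson's r as a description, with no p. The arrays span 8 genotypes and 3 array groups, so differences between these enter each r. The nearest to Cdkn1a were Phf13 (0.849), Fhl1 (0.814), Pcgf5 (0.798), Cdkn2c (0.794) and Nudt4 (0.793). Nearest to Cdkn2c were Mxi1 (0.937), Nudt4 (0.901), Carhsp1 (0.899), Dusp1 (0.888) and Plek2 (0.885), so Nudt4 stood on both lists. Cdkn1b was nearest to Plekhg5 (0.817), Tmpo (0.795), Bbc3 (0.792), Klf5 (0.792) and Cdkn2d (0.758), and Cdkn2d to Cenpl (0.864), Tmpo (0.833), Klf11 (0.788), Otud1 (0.785) and Stk11 (0.767). Cdkn1c shared no name with the others: Neo1 (0.872), Cnn3 (0.861), Tuba1a (0.830), Basp1 (0.823) and Zfp503 (0.822) came first.

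Genes that work with the inhibitors were counted for Rb1 loss from lists. Over all tested genes 2.27% were called for Rb1 loss in either direction, and no list was tested as a set. Of 11 tested cyclins and kinases that the inhibitors bind, 3 were higher and 0 lower, with a list median of 0.08 (log2). These were Cdk1, the mitotic kinase (0.22 ± 0.04, adjusted p = 0.00133), Cdk2, the kinase of S-phase entry (0.28 ± 0.07, adjusted p = 0.0353), and its partner Ccna2 (0.23 ± 0.06, adjusted p = 0.0313). Of 13 ubiquitin ligase genes that turn over inhibitor proteins 1 was higher, Dtl, the receptor that directs p21 to degradation (0.31 ± 0.08, adjusted p = 0.0169), and 0 were lower. Of 17 transcription factors that act on inhibitor genes 2 were higher, E2f1 (0.46 ± 0.07, adjusted p = 5.9e-05) and the erythroid repressor Gfi1b (0.40 ± 0.09, adjusted p = 0.00698). Of 16 tested p53 targets other than Cdkn1a, 2 were higher, the p53 cofactor gene Trp53inp1 (0.92 ± 0.14, adjusted p = 5.1e-05) and the pro-apoptotic Bbc3 (1.05 ± 0.20, adjusted p = 6.94e-04), and 1 was lower, the stress gene Gadd45a (-0.44 ± 0.08, adjusted p = 4.1e-04). The median of that list was 0.02. With p107 loss 1 of the 11 cyclins and kinases was lower, Ccne1, the cyclin E1 gene (-0.39 ± 0.06, adjusted p = 9.03e-05), and none was higher. Over all tested genes 1.16% were called for p107 loss.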

How the data were processed

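The authors deposited linear MAS5 signals (unit intensity), computed with MAS5 in GCOS 1.4 per the submitters' processing notes. The table held 45037 probe sets on 34 arrays, without detection calls or scan dates in the files used here. Gene symbols came from the array's probe annotation updated through the RefSeq gene table (GRCm38.p6): 34945 probe sets had 1 symbol, 932 had several and were left out, and 9160 had none. Signals were scaled to a 2% trimmed mean of 500 an array and used as log2(signal + 32), and the brightest probe set on average stood for a gene. Genes at 100 or more on 2 or more arrays were fitted with limma 3.58.1 in R 4.3.3 (lmFit, contrasts.fit, eBayes with trend), two-sided with Benjamini-Hochberg adjustment over all 12719 genes in each comparison. One fit held a term for each lost gene, another the 8 genotypes, both over all 34 arrays. The fit was tested on simulated data. Permutation tests used 100000 resamples (numpy 2.4.6, scipy 1.17.1). Array groups came from clustering differences between the 2 brightest probe sets of 2996 genes, members left out. For each member the 5 genes with the highest r were named, and for each list up to 4 called genes with the largest t for Rb1 loss. Precision is limited by the number of arrays. The members, lists and tests were chosen with earlier results of these data known. Alternatives tried were pseudocounts, filters, quantile normalization, probe set rules, array weights, blocks, Xist and marker covariates, and left-out arrays.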

Additional observations from a re-analysis of the deposited data

Results flagged for a closer look

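In 28 groups of 4 to 10 arrays, 1 group for each probe set and genotype, the highest or lowest array was compared with the rest by Dixon's gap, and it passed the 95% limit in 4 groups, where chance gives about 1 in 20. The 4 values came from 2 arrays and so are not independent. In TKO livers array 5 was highest for Cdkn1b on both probe sets, at 3788.8 on the brighter (others 2041 to 2520) and 104.7 on the dimmer (others 41.45 to 59.95). In Rb1;p130 DKO livers array 9 was highest for Cdkn1c at 5185.9 (others 1852 to 2638) and lowest for Cdkn2d at 5046.4 (others 8495 to 11510). On array 9 the summed mesenchymal markers were the highest of all 34 arrays and the summed macrophage markers the lowest, and the part of these in its Cdkn1c and Cdkn2d signals was not tested.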

How the results depend on the processing

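The p107-loss count of 1 member and the p130-loss count of 0 did not change under any alternative run, and the Rb1-loss count of 4 became 3 only with the mean of all probe sets, where Cdkn1b lost its call. Over the 5 tested members, all comparisons and all alternatives, 3422 results kept their side of the threshold, 28 gained a call, 5 lost one and none changed sign while called. With array group as a block, TKO against p107;p130 DKO called 4 members in place of 2, and it called 3, with Cdkn2d added, under array weights (adjusted p = 0.00386), only the arrays compared (0.0317), the replicate block, or without Rb1;p130 DKO arrays 8 and 9 (0.00882), and 2 to 3 when single arrays were left out. For Rb1;p130 DKO against p130 KO the count of 0 became 1 with a pseudocount of 1, quantile normalization or the mean of probe sets, 2 with array weights or the array group block, and 0 to 1 when single arrays were left out (p107;p130 DKO 3, Rb1 KO 2, Rb1;p130 DKO 6 and 7, TKO 3 and 4). For TKO against wild type the count of 1 became 0 with the mean of probe sets or only the arrays compared, 2 with the array group block, and 0 to 1 when single arrays were left out. For TKO against Rb1;p130 DKO the count of 0 became 1 with array weights, the array group block or without Rb1;p130 DKO arrays 8 and 9, and 0 to 1 when single arrays were left out. For Rb1;p107 DKO against Rb1;p130 DKO it became 1 with array weights, Cdkn1b at -0.39 (adjusted p = 0.0410). Causes were not tested.

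Whether replicate numbers pair the arrays was not tested. Same-numbered arrays of different genotypes correlated at -0.38 to 0.50 in their deviations (median 0.07, 67 pairs). Different-numbered arrays correlated at -0.50 to 0.44 (median -0.009, 380 pairs), and 9 of 33 arrays correlated best with an array of their own number. With the replicate block TKO against Rb1;p130 DKO called 1 member, Cdkn1c (0.82, adjusted p = 0.0447), and Cdkn2d was called in TKO against p107;p130 DKO (0.56, adjusted p = 0.0141).

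Counts over all genes moved more. Over alternatives other than left-out arrays the 289 calls for Rb1 loss ran from 251 to 561, the 148 for p107 loss from 85 to 644, the 2 for p130 loss from 2 to 9, the 49 for TKO against p107;p130 DKO from 33 to 145, the 15 for Rb1;p130 DKO against p130 KO from 5 to 50, the 10 for TKO against wild type from 2 to 29, the 3 for TKO against Rb1;p130 DKO from 1 to 17, the 3 for p107;p130 DKO against p130 KO from 2 to 10, the 1 for TKO against Rb1;p107 DKO from 0 to 28 and the 40 for Rb1;p107 DKO against Rb1;p130 DKO from 4 to 2130. Leaving out single arrays moved the p107-loss count to between 73 (without wild type array 1) and 336 (without Rb1;p130 DKO array 9), and the last comparison's to between 6 and 811 (without Rb1;p107 DKO arrays 3 and 1). Other counts moved over 1.5 times in the same way: TKO against p107;p130 DKO to 28 (without p107;p130 DKO array 2), 31 (array 3) and 30 (without TKO array 2), Rb1;p130 DKO against p130 KO to 7, 7 and 9 (without p130 KO array 1, 2 or 3), TKO against wild type to 4 (without wild type array 2), TKO against Rb1;p130 DKO to 8 (without Rb1;p130 DKO array 9) and 5 (array 7), p107;p130 DKO against p130 KO to 1 (without p130 KO array 3), p107;p130 DKO against wild type to 2 (without TKO array 1 or Rb1;p130 DKO array 3), and Rb1 KO against wild type to between 0 (without wild type array 2) and 4 (without Rb1 KO array 1). The single p107 KO array, 2 Rb1 KO and 2 wild type arrays limit those genotypes, and low probe sets have no detection calls here.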
